A study of Mus musculus with 7 samples.

Results

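Rab genes encode small GTPases of the Ras superfamily, and their transcripts were followed here in laser-captured tissue of hippocampal area CA2. Members were all gene symbols made of Rab, a number and at most a letter and a further digit that were listed in both deposited gene tables, which gave 54 genes of the 41567 symbols of the unsheared table and the 22814 usable symbols of the sheared table. The unsheared table held 56 such symbols, of which *Rab1a* and *Rab7b* were listed there only, and the sheared table held 58, of which *Rab1*, *Rab4a*, *Rab4b* and *Rab43* were listed there only. *Rab1* is a synonym of *Rab1a* in RefSeq, and *Rab1a* is used below only as the partner of *Rab1b*.

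The tissue came from naive male Amigo2-GFP mice on a C57BL/6 background, aged 6 weeks, in which a green fluorescent protein under Amigo2 control marks CA2 pyramidal cells and guided the laser. CA2 was cut from fresh-frozen sections, so the captured material was a piece of tissue and not a sorted cell population. In the unsheared set, RNA extracted with either the PicoPure kit or the QIAGEN kit was made into a library with either the NuGEN kit or the Clontech kit, with 1 library for each of the 4 combinations. NuGEN cDNA is primed with random and poly-dT primers and ribosomal RNA is removed before the last amplification, whereas with the Clontech kit ribosomal RNA is removed first and cDNA is primed at random. The study gives the PicoPure RNA as the one of lower quality. In the sheared set, 3 NuGEN libraries of QIAGEN RNA were made from sheared cDNA with 16, 18 and 20 PCR cycles, and the deposited columns name another mouse for each, so that cycles and mouse cannot be told apart. By the labels and the paper, all 7 libraries share the mouse line, the brain area and the way of capture.

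Values are read counts divided by a size factor per library, called normalized counts below. The tables were scaled separately, so a level is compared only within a table. The unsheared libraries held 5194138 reads in genes with NuGEN and PicoPure RNA, 4548002 with NuGEN and QIAGEN RNA, 10417443 with Clontech and PicoPure RNA and 10176710 with Clontech and QIAGEN RNA, and the sheared libraries held 33239387, 34320087 and 39256039 at 16, 18 and 20 cycles. The 8 CA2 pyramidal markers listed in the unsheared table, among them *Rgs14* and Amigo2, summed to 9541 and 10222 normalized counts in the NuGEN libraries (PicoPure, then QIAGEN RNA, the order used throughout) and to 9359 and 9993 in the Clontech libraries. Because tissue was captured, a lower value can stand for fewer cells of a type or for less RNA per cell, and these cannot be told apart.

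A Rab protein cycles between a GTP-bound form on a membrane, where it recruits effectors, and a GDP-bound form that is extracted to the cytosol by a GDP dissociation inhibitor. Guanine nucleotide exchange factors switch it on, GTPase-activating proteins switch it off, and geranylgeranyl lipids added with the help of Rab escort proteins anchor it. Each Rab marks a step of vesicle traffic, and neurons use them to move cargo through the Golgi, to release transmitter from synaptic vesicles and to recycle receptors in endosomes.

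Many Rab genes are paralogs with nearly the same protein, so the sequences below show that the transcripts of the pairs on which the comparisons turn could be told apart. They are the 24 coding bases of the P-loop, the loop that holds the phosphates of the bound nucleotide, read from GENCODE vM21 on GRCm38, 5′ to 3′. Capitals mark the bases that differ from the first member of the same family.
Rab1a: ggcgattctggggttggaaagtcc
Rab1b: ggTgaCtcCggCgtGggCaagtcG
Rab3a: gggaacagcagcgtgggcaaaacc
Rab3c: ggCaaTagcagcgtgggcaaaacA
Rab5a: ggagagtctgctgttggcaaatca
Rab5b: ggagagtctgcAgtGggGaaGtcT
Rab5c: ggCgagtctgcCgtGggcaaGtcC
Rab6a: ggagagcagagcgttggaaagacg
Rab6b: ggGgagcagagcgtCggGaagacg
Rab11a: ggagattctggtgttggaaagagt
Rab11b: ggGgaCtcAggtgtAggTaagagC
*Rab1b* differed from *Rab1a* at 7 of the 24 bases, *Rab11b* from *Rab11a* at 6, *Rab5b* and *Rab5c* each from *Rab5a* at 5, and *Rab3c* from *Rab3a* as well as *Rab6b* from *Rab6a* at 3. The P-loop lay at chr19:5105199-5105222 on the minus strand in *Rab1b*, at chr11:20215658-20215681 on the plus strand in *Rab1a*, at chr8:70755940-70755963 on the plus strand in *Rab3a* and at chr9:64728395-64728418 on the minus strand in *Rab11a*, and it was split by an intron in *Rab6a* and *Rab6b*. The longest run of identical bases between the transcripts of a pair was 38 in *Rab1a* and *Rab1b*, 35 in *Rab5a* and *Rab5b* and 14 in both the *Rab6* and the *Rab11* pair. The share of G and C at the third position of codons was 68.7% in *Rab1b* and 46.3% in *Rab1a*, 73.1% in *Rab6b* and 48.1% in *Rab6a*, and 39.8% in *Rab11a* and 67.9% in *Rab11b*. It was 72.7% in *Rab3a* and 59.5% in *Rab3c*, and 31.6% in *Rab5a*, 56.3% in *Rab5b* and 64.1% in *Rab5c*.

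Synaptic vesicle and Golgi Rabs were the most abundant members. *Rab3a*, which acts in the regulated exocytosis of synaptic vesicles, had the highest level per kb of exon in both tables. Without division by length, *Rab6a* and *Rab6b* were above it in the sheared libraries, with means of 40178 and 37292 normalized counts against 28752. In the unsheared libraries *Rab6b* was above it, with a mean of 6320 against 5086. *Rab3a* lies at chr8:70754679-70758677 on the plus strand (GRCm38) and reached 2460.0 and 2984 normalized counts per kb in the NuGEN libraries and 1606 and 2089 in the Clontech libraries. In the sheared libraries it had 12684, 13112 and 12954 normalized counts per kb at 16, 18 and 20 cycles. Its range there lay above that of the next member, *Rab6a*, which works in traffic within and back from the Golgi and had 10372, 11253 and 10707 normalized counts per kb. *Rab6b*, the paralog of *Rab6a* that is enriched in brain, came next in the sheared libraries with 7558, 7580.3 and 7099.5 normalized counts per kb, and its range overlapped that of *Rab2a*, which acts between the endoplasmic reticulum and the Golgi, at 7401, 7355 and 7044.

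In the unsheared libraries the order per kb of exon was *Rab3a*, *Rab6b*, *Rab6a*, *Rab2a*, *Rab7*, *Rab1b*, *Rab10*, *Rab5c*, *Rab15* and *Rab3c*. By the highest exon piece of each gene, *Rab6b* and *Rab3c* came before *Rab3a*, with means of 4397, 2397 and 2268 normalized counts. *Rab6b* had 1302 and 1393 normalized counts per kb with NuGEN, against 1080.4 and 1249 with Clontech, and *Rab6a* had 839.9 and 1001 with NuGEN, against 1254 and 1198 with Clontech, so that these neighbours overlapped over the 4 libraries. *Rab7*, the Rab of late endosomes and lysosomes, had 712 and 873 with NuGEN, against 620.2 and 779 with Clontech and also overlapped *Rab2a* at 674 and 727 with NuGEN, against 789 and 870.4 with Clontech. The plot of levels per kb shows these genes as the bright bands of each trafficking step.

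The order was largely shared by the tables, in which 8 of the 10 most abundant members were the same and Spearman's rho over the 54 members was 0.979, a description over genes that share libraries. *Rab7* stood higher in the unsheared order than in the sheared one. It took 5.34% and 5.67% of the reads of the members in the NuGEN unsheared libraries, 4.71% and 5.17% in the Clontech libraries and 1.92%, 1.89% and 1.63% in the sheared libraries. *Rab5a*, which drives the fusion of early endosomes, took 1.85% and 2.04% with NuGEN, 1.34% and 1.22% with Clontech and 3.26%, 3.26% and 3.29% in the sheared libraries. Shearing, the mouse, depth and possibly the gene annotation differ between the tables, and their part in these shares was not tested.

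**Figure D1:**
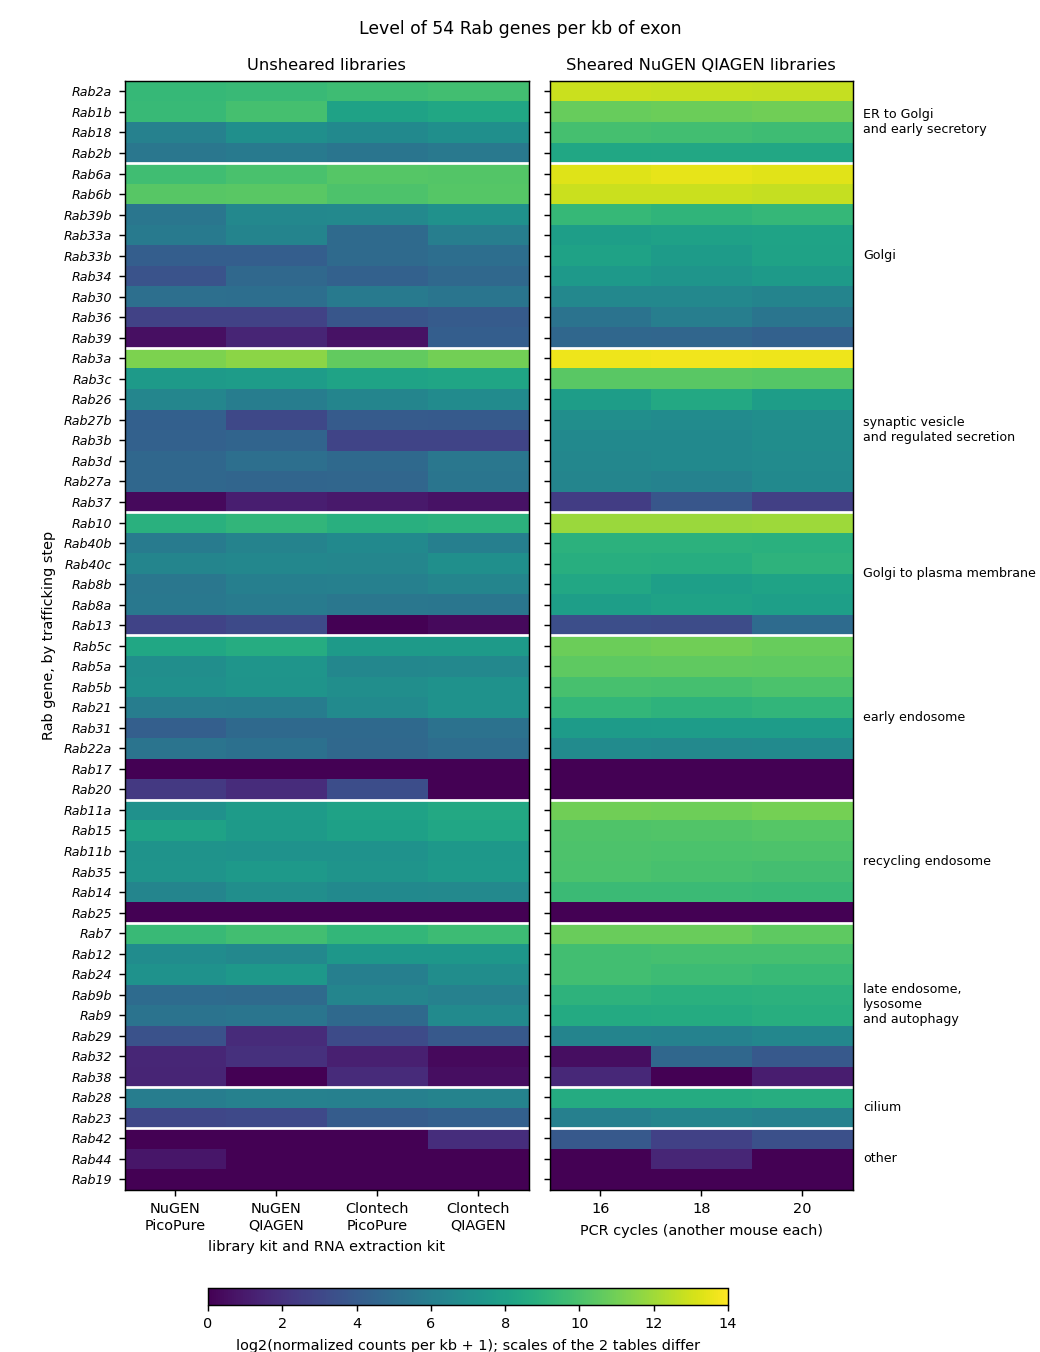
Level of each of the 54 Rab genes, drawn as the log2 of normalized counts per kb of exon plus 1, in the 4 unsheared libraries (left) and the 3 sheared libraries by PCR cycles (right), with genes grouped by trafficking step. *Rab3a*, *Rab6a* and *Rab6b* are the brightest, and *Rab17*, *Rab19* and *Rab25* are at 0 in all 7 libraries; the tables have separate scales.

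In other steps the levels were as follows. Among Rabs of the route from the Golgi to the plasma membrane, *Rab10* led with 469 and 595 normalized counts per kb with NuGEN, 449 and 515 with Clontech and 3793, 3816 and 3907 in the sheared libraries. Among early endosome Rabs, *Rab5c* led per kb of exon with 326 and 400.1 with NuGEN, 199 and 197 with Clontech and 1832, 2001 and 1745 in the sheared libraries, where *Rab5a* followed at 1491, 1511 and 1488. Per kb of the longest transcript, *Rab5a* had the higher mean over the sheared libraries (2445 against 2074), and *Rab5c* over the unsheared ones (313 against 186). Without division by length the sheared means were 7887 normalized counts for *Rab5a* and 4080 for *Rab5c*. Of the recycling endosome Rabs, *Rab15*, a neuronal Rab, had 268 and 197 with NuGEN and 247 and 309.6 with Clontech, and *Rab11a* had 135 and 208 with NuGEN and 268 and 343 with Clontech. *Rab15* had the higher mean over the unsheared libraries only through NuGEN of PicoPure RNA, since *Rab11a* was above it in the other 3 and in all sheared libraries. *Rab28*, which is linked to the cilium, was the higher of the cilium members with 61.1 and 69.9 normalized counts per kb with NuGEN, 67.7 and 75.2 with Clontech and 393, 398 and 414 in the sheared libraries.

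The members together took 0.477% and 0.530% of the reads with NuGEN, 0.531% and 0.601% with Clontech and 0.682%, 0.691% and 0.674% in the sheared libraries. A read was found for 50 and 48 members with NuGEN, 48 and 49 with Clontech and 49 in each sheared library. *Rab17* and *Rab25*, which are known from polarized epithelia, and *Rab19* were at 0 in all 7 libraries. A count of 0 allows up to 3 reads, or 4.21 and 4.998 normalized counts in the NuGEN libraries, 1.86 and 1.93 with Clontech and 3.19, 3.09 and 2.71 in the sheared libraries, as counting error only. *Rab32*, a Rab of lysosome-related organelles, had 1 read at 16 cycles, 56 at 18 and 36 at 20.

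The first comparison asked how the library kit changed what was measured of the Rab genes. With NuGEN, *Rab1b* of early secretion, the early endosome Rabs *Rab5a* and *Rab5c*, *Rab24* and the synaptic *Rab3a* were higher than with Clontech, and *Rab9b*, *Rab21*, *Rab11a*, *Rab39b*, *Rab12*, *Rab3c* and *Rab6a* were lower. By limma on log2(normalized count + 1), 5 of the 44 members tested were higher and 7 lower at an adjusted p under 0.05, against 10.8% higher and 10.5% lower of all 13048 genes tested. Either direction took 12 members, or 27.3%, against 21.3% of all genes. There were 10 members with both NuGEN libraries above both Clontech libraries and 13 with both below, against 27.0% and 27.9% of all genes. The median difference was -0.27 over the members and -0.03 over all genes. Within PicoPure RNA it was 0.002 over the members, with 50.0% of them below 0, against -0.02 and 51.2% over all genes. Within QIAGEN RNA it was -0.26 with 56.8% below 0, against -0.03 and 51.1%.

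*Rab1b*, which carries vesicles between the endoplasmic reticulum and the Golgi and lies at chr19:5099205-5107072 on the minus strand, had the largest rise among members that passed. It had 1587 and 2141 normalized counts with NuGEN against 598 and 745 with Clontech. Both NuGEN libraries lay above both Clontech libraries, with a log2 difference of 1.46 (SE 0.159, limma adjusted p = 3.31e-09), which was 1.41 in PicoPure RNA and 1.52 in QIAGEN RNA. Its paralog *Rab1a* had 973 and 1321 with NuGEN, against 1109 and 1436 with Clontech, a log2 difference of -0.15 (limma adjusted p = 0.537), and the ranges overlapped. The other tested members of this step, *Rab2a*, *Rab2b* and *Rab18*, had log2 differences of -0.24, 0.08 and -0.26 and did not pass.

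Among early endosome Rabs, 2 of 6 tested members were higher and 1 lower, against 10.8% higher and 10.5% lower of all genes. *Rab5c* had 716 and 878 normalized counts with NuGEN, against 436 and 433 with Clontech, without overlap (log2 0.87, SE 0.202, limma adjusted p = 0.00136). *Rab5a* had 643 and 819.6 with NuGEN, against 461 and 479 with Clontech, again without overlap (log2 0.63, SE 0.202, limma adjusted p = 0.0218). The remaining paralog, *Rab5b*, had 553 and 625 with NuGEN, against 505 and 586 with Clontech, and these ranges overlapped (log2 0.11). *Rab21*, an early endosome Rab that binds integrins, went the other way with 300.5 and 295 with NuGEN, against 519 and 694 with Clontech, without overlap (log2 -1.01, SE 0.233, limma adjusted p = 0.00122).

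Of 7 tested Rabs of synaptic vesicles and regulated secretion, 1 was higher and 1 lower, against 10.8% and 10.5% of all genes. *Rab3a* had 5476 and 6643 normalized counts with NuGEN, against 3574 and 4649 with Clontech, with all NuGEN values above all Clontech values (log2 0.57, SE 0.108, limma adjusted p = 0.000122), a direction that reversed to -0.50 in a fit on the highest exon piece of each gene (limma adjusted p = 0.0182). *Rab3c*, a paralog on the same vesicles, had 2408 and 2525 with NuGEN, against 3364 and 3584 with Clontech, with all NuGEN values below (log2 -0.49, SE 0.121, limma adjusted p = 0.00226), and had -0.72 on the highest piece. *Rab3b* had 68.8 and 76.6 with NuGEN, against 22.3 and 22.5 with Clontech but did not pass (log2 1.65, SE 0.745, limma adjusted p = 0.114), and *Rab3d* had 104 and 139.9 with NuGEN, against 110.5 and 193 with Clontech, with overlap (log2 -0.27).

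Of the Golgi Rabs, 0 of 8 tested members were higher and 2 were lower by limma, against 10.8% and 10.5% of all genes. *Rab6a* had 3131 and 3729.9 normalized counts with NuGEN, against 4676 and 4468 with Clontech, without overlap (log2 -0.42, SE 0.116, limma adjusted p = 0.00680). *Rab6b* had 6553 and 7007 with NuGEN, against 5436 and 6284 with Clontech and did not pass (log2 0.21, SE 0.103, limma adjusted p = 0.143). *Rab39b*, an X-linked Rab of the Golgi whose loss in humans causes intellectual disability, had 150.2 and 309.9 with NuGEN, against 319 and 453 with Clontech (log2 -0.81, SE 0.278, limma adjusted p = 0.0314). Its NuGEN and Clontech ranges nearly touched.

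Of 5 tested recycling endosome Rabs 1 was lower, and of 6 tested late endosome and autophagy Rabs 1 was higher and 2 were lower. Of all genes, 10.8% were higher and 10.5% lower. *Rab11a*, the main Rab of recycling endosomes, had 404 and 621 normalized counts with NuGEN, against 801 and 1027 with Clontech, without overlap (log2 -0.85, SE 0.191, limma adjusted p = 0.000874). Its paralog *Rab11b* had 875 and 849.6 with NuGEN, against 869.6 and 1060.1 with Clontech, with overlap (log2 -0.16). *Rab9b*, which belongs with *Rab9* to the route from late endosomes to the trans-Golgi, had 117 and 109.9 with NuGEN, against 326 and 283 with Clontech (log2 -1.42, SE 0.343, limma adjusted p = 0.00199). It was the member with the largest fall. *Rab12*, a Rab of endosomes and lysosomes, had 336 and 273 with NuGEN, against 516 and 522 with Clontech (log2 -0.78, SE 0.238, limma adjusted p = 0.0153). *Rab24*, which takes part in autophagy, had 286 and 355 with NuGEN, against 131 and 232 with Clontech (log2 0.87, SE 0.305, limma adjusted p = 0.0373). None of these 3 had overlapping ranges. By limma 0 of 6 tested members of the route to the plasma membrane and 0 of 2 of the cilium passed.

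**Figure D2:**
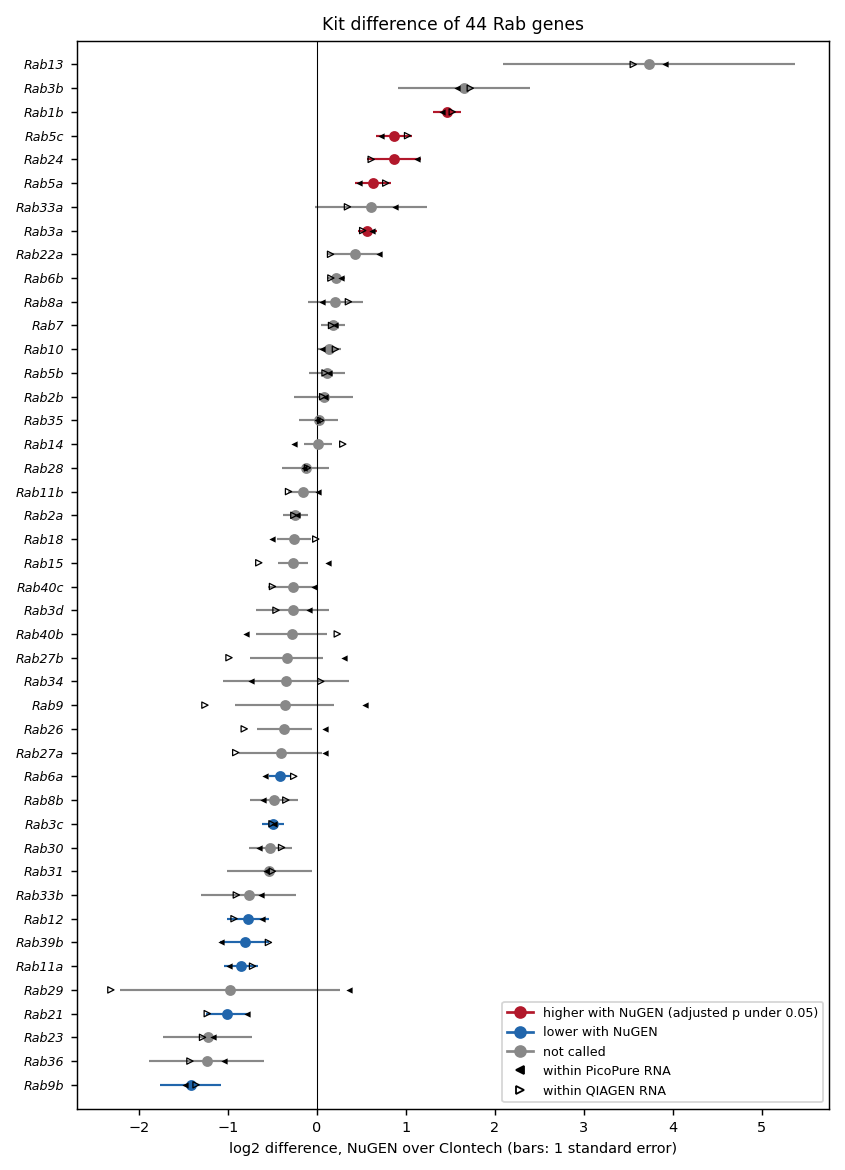
Log2 difference of each of the 44 tested Rab genes, NuGEN over Clontech, with bars of 1 standard error and triangles for the differences within PicoPure and within QIAGEN RNA. The 5 members called higher (red) run to 1.46 for *Rab1b* and the 7 called lower (blue) to -1.42 for *Rab9b*, and *Rab13* at the top was not called.

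*Rab13*, known from tight junctions, had the largest fitted difference (log2 3.73, limma adjusted p = 0.104), but it rested on 10 and 11 reads with NuGEN, against 0 and 1 with Clontech. The most abundant members of their steps that did not pass, *Rab2a*, *Rab10*, *Rab15*, *Rab7* and *Rab28*, had log2 differences of -0.24, 0.13, -0.27, 0.18 and -0.13. In all, 33 of the 44 members had the same sign of the kit difference in both RNA samples. This count was not made over all genes, so it is not read as a trait of the Rab genes. The exons of *Rab24* overlap those of *Prelid1* on the opposite strand by 1258 bases, those of *Rab6a* overlap *Mrpl48* by 708, those of *Rab39b* overlap *Gm15063* by 634 and those of *Rab5a* overlap *Pp2d1* by 221, and the use of strand in the authors' counting is not stated, so these 4 differences are uncertain. With all 4 libraries, limma without the RNA term called 2 members higher and 2 lower, against 691 and 454 of 13048 genes. DESeq2 did not call *Rab12*, *Rab24*, *Rab39b* and *Rab5a*, and edgeR did not call *Rab39b*. When any 1 library was left out along with the RNA term, all 12 kept their direction. This could not come out otherwise, since the NuGEN and Clontech ranges of these 12 did not overlap.

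Beside the members, summed excitatory neuron markers were 58555 and 65725 normalized counts with NuGEN, against 32885 and 38234 with Clontech, with 4 of 4 genes called higher and none at 0. Oligodendrocyte precursor markers summed to 349.6 and 406 with NuGEN, against 155 and 199 with Clontech, with 2 of 4 called higher. Of 7 oligodendrocyte markers 2 were called higher and of 7 interneuron markers 2, *Sst* and *Pvalb*. Of 8 CA2 markers tested 1 was called higher and 2, Amigo2 and *Map3k15*, lower. Of all genes, 10.8% were higher and 10.5% lower. The median log2 difference was -0.01 over the oligodendrocyte, 0.84 over the interneuron and 0.10 over the CA2 markers. The part of these cell types in the kit differences was not tested.

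GC content and length were set beside the calls as sequence features that the choice of members did not use. The median GC content of the transcript was 55.0% (46.7 to 58.9%) in the 5 members higher with NuGEN, 41.9% (39.5 to 48.9%) in the 7 lower and 48.9% (36.8 to 59.5%) in the 32 not called. The median length of the longest transcript was 1913, 3401 and 3309 bases in the same order. Spearman's rho between the kit difference and GC content was 0.38 over the 44 members and 0.28 over 12603 genes, and with length it was -0.22 and -0.30. These are descriptions over genes that share libraries, and how GC content or length bears on the difference was not tested.

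Counts per exon showed where along each Rab transcript the kits differed. Of 42 tested members with at least 3 exons, the first exon had a higher kit difference than the inner exons in 39, against 76.0% of 11869 genes. The last exon was above the inner exons in 22, against 43.5%. These counts include members with no first exon value, since exon 1 of *Rab6a*, *Rab13*, *Rab15* and *Rab26* was at 0 in all 4 libraries. In a restriction chosen after the data were seen, to genes whose first, inner and last exons each reached 10 normalized counts in 2 or more libraries, the first exon was above the inner exons in 31 of 32 members, against 87.6% of 6351 genes, and the last exon in 17, against 43.9%. The median log2 difference over these 32 members was 2.09 for first exons, -0.18 for inner exons and -0.37 for last exons, and over the 6351 genes it was 1.99, -0.05 and -0.23.

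Within *Rab3a* the exons went both ways. Exon 1 had 1832 and 2805 normalized counts with NuGEN, against 642 and 642 with Clontech (log2 1.82), and exon 5, the last, had 4631 and 5438 with NuGEN, against 776 and 909 with Clontech (log2 2.58). Exon 2 had 2936 and 3659 with NuGEN, against 4802 and 5697 with Clontech (log2 -0.67). Both ends were thus higher with NuGEN while exon 2 was lower.

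*Rab1b* was higher with NuGEN in every exon but exon 5, with log2 differences of 1.74, 1.27 and 0.80 in exons 2, 3 and 4. Its exon 1 had 286 and 413 normalized counts with NuGEN, against 40.8 and 111 with Clontech (log2 2.33), and its last exon, number 6, had 1339 and 1629 with NuGEN, against 540.0 and 558 with Clontech (log2 1.43). Exon 5 had 122 and 153 with NuGEN, against 116 and 182 with Clontech, with overlap (log2 -0.09). In *Rab5c*, exon 1 differed most, with 152 and 146 with NuGEN, against 20.0 and 5.62 with Clontech (log2 3.66).

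*Rab21* was lower with NuGEN in its inner exons and its last exon, and the inner exons of *Rab6a* were mixed. The last exon of *Rab21* had 162 and 93.5 normalized counts with NuGEN, against 362 and 397 with Clontech (log2 -1.61). *Rab21* exon 3 had 16.8 and 30.7 normalized counts with NuGEN, against 207 and 346 with Clontech (log2 -3.50), whereas exon 1 had 114 and 219 with NuGEN, against 96.9 and 112 with Clontech (log2 0.59). *Rab6a* exon 2 had 1506 and 2129 with NuGEN, against 1005 and 962 with Clontech (log2 0.86). *Rab6a* exon 8 had 428 and 549 with NuGEN, against 1738 and 1614 with Clontech (log2 -1.79), while its last exon, number 11, had 1847 and 1843 with NuGEN, against 2151 and 1629 with Clontech (log2 -0.02). *Rab3c* carried most of its counts in exon 5, the last, with 2069.5 and 2225 with NuGEN, against 3037 and 3159.5 with Clontech (log2 -0.53), and its exon 1 went the other way with 257 and 437 with NuGEN, against 148 and 53.1 with Clontech (log2 1.90). The exon table gives no lengths, a read counts in every exon piece that it covers, and these exon values carry no test.

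**Figure D3:**
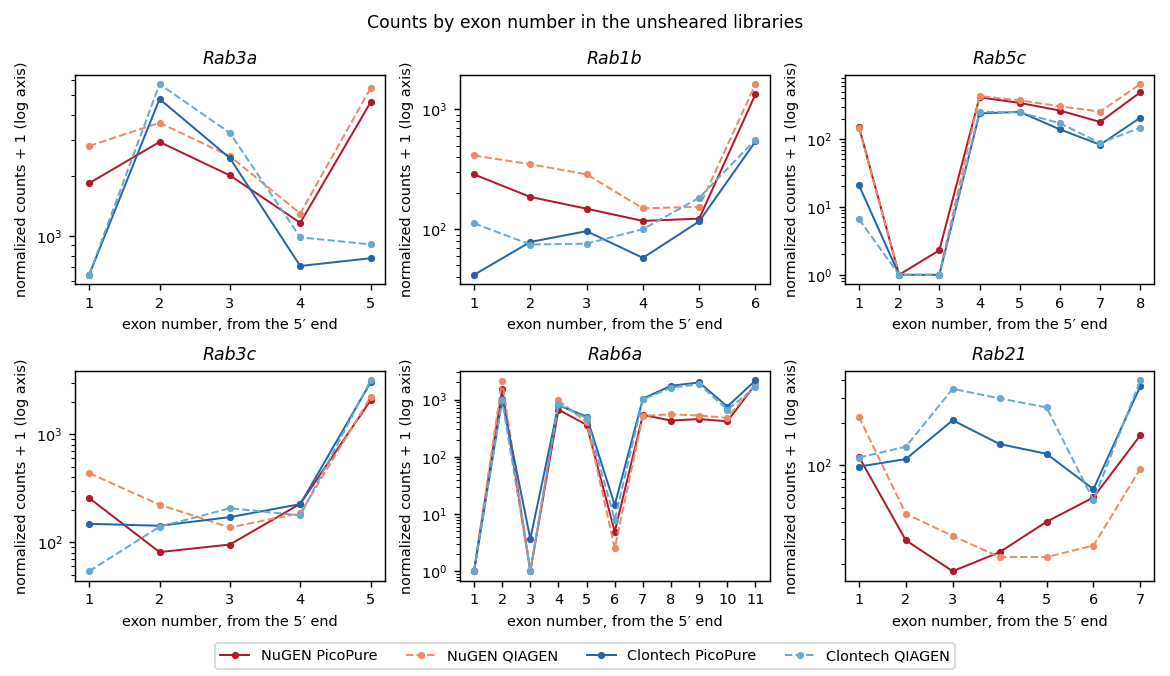
Normalized counts plus 1 on a log axis by exon number from the 5′ end in the 4 unsheared libraries, for 6 Rab genes called in the kit comparison. NuGEN lines (red) lie above Clontech lines (blue) at the first exon of *Rab3a*, *Rab1b*, *Rab5c* and *Rab3c*, and below them in exons 2 to 5 and the last exon of *Rab21*.

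Paralog pairs put the kit differences into shares of a family. Shares are of normalized counts per kb, with Wilson intervals at 95% that cover counting error only. *Rab1b* made up 73.2% (71.3 to 75.0%) and 73.0% of the sum with *Rab1a* in the NuGEN libraries and 47.4% (45.5 to 49.4%) and 46.5% (44.7 to 48.2%) in the Clontech libraries. In the sheared NuGEN libraries it was 46.0%, 48.3% and 49.6%. The unsheared NuGEN libraries thus stood apart from all 5 others for this pair.

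*Rab6b* was 60.8% (59.6 to 62.0%) and 58.2% (56.9 to 59.4%) of the *Rab6* pair with NuGEN and 46.3% (45.5 to 47.0%) and 51.0% (50.3 to 51.8%) with Clontech, and 42.2%, 40.3% and 39.9% in the sheared libraries. Per kb, *Rab6b* was the more abundant paralog in 3 of the 4 unsheared libraries, and *Rab6a* in the remaining one and in all 3 sheared libraries. By reads without division by length *Rab6b* led in all 4 unsheared libraries (67.7% and 65.3% with NuGEN, 53.8% and 58.4% with Clontech), and by summed exon pieces only in those of NuGEN (59.7% and 55.5%, against 43.6% and 48.0% with Clontech). *Rab11a* was 48.6% (45.2 to 52.1%) and 60.0% of the *Rab11* pair with NuGEN, 65.4% and 66.5% with Clontech and 64.3%, 65.1% and 66.2% in the sheared libraries, so the NuGEN library of PicoPure RNA stood lowest. By reads without division by length *Rab11a* was 31.6% and 42.2% with NuGEN and 47.9% and 49.2% with Clontech. In the sheared libraries it was 46.8%, 47.7% and 48.9% by reads, so by this measure *Rab11b* led in every library. By summed exon pieces *Rab11a* was 34.2% and 45.4% with NuGEN and 44.9% and 44.9% with Clontech.

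*Rab3a* was 92.5% and 93.4% of the sum with *Rab3c* with NuGEN, 85.2% and 87.5% with Clontech and 90.3%, 90.6% and 90.9% in the sheared libraries, and it led that pair in all 7. By reads alone it was 69.5% and 72.5% with NuGEN, 51.5% and 56.5% with Clontech and 63.2%, 64.1% and 65.0% in the sheared libraries. *Rab5c* was 71.3% and 72.9% of the sum with *Rab5b* with NuGEN, 62.3% and 58.6% with Clontech and 65.3%, 68.0% and 62.9% in the sheared libraries. By reads alone *Rab5c* was 56.4% and 58.4% with NuGEN, 46.3% and 42.5% with Clontech and 49.6%, 52.6% and 47.0% in the sheared libraries. *Rab5a* against *Rab5b* was 48.1% and 51.1% with NuGEN, 42.1% and 39.4% with Clontech and 60.5%, 61.6% and 59.1% in the sheared libraries, where *Rab5a* was the more abundant throughout. *Rab9b* made up 42.7% and 39.7% of the sum with *Rab9* with NuGEN and 75.3% and 41.3% with Clontech, where the share of 75.3% belonged to the library of PicoPure RNA alone, and 58.7%, 55.5% and 54.2% in the sheared libraries. By reads alone *Rab9b* led in every library, with 62.9% and 60.0% with NuGEN and 87.4% and 61.6% with Clontech. In the sheared libraries it was 76.4%, 73.9% and 72.9% by reads.

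**Figure D4:**
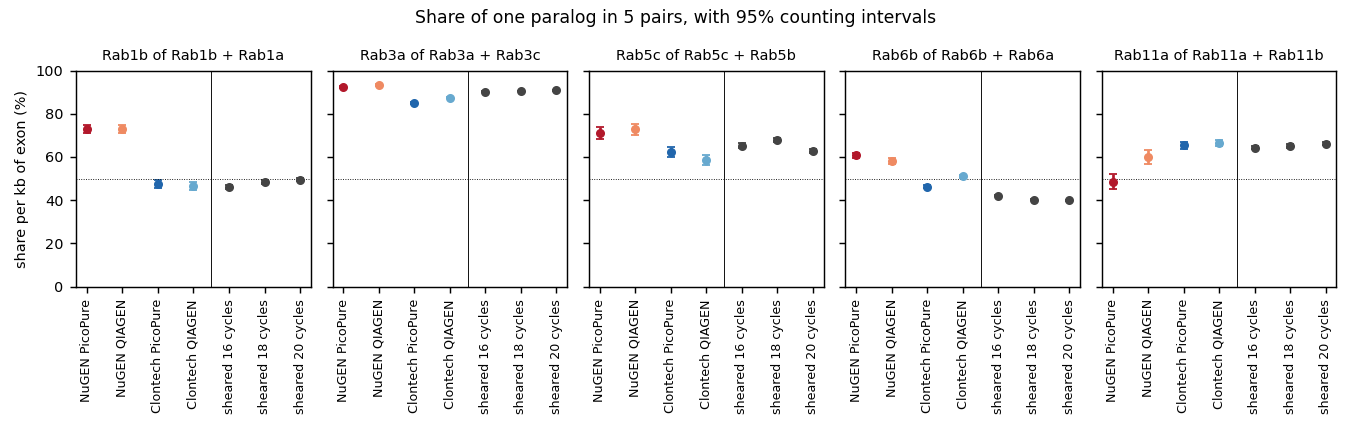
Share per kb of exon (%) of the first-named gene of 5 Rab paralog pairs in each library, with 95% Wilson counting intervals. *Rab1b* holds 73.2 and 73.0% in the unsheared NuGEN libraries, against 46.0 to 49.6% in all other libraries.

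The second comparison, on the same 4 libraries, set the PicoPure RNA beside the QIAGEN RNA. Extraction cannot be told apart here from the RNA sample, that is from the mouse or the piece captured. In the paper's comparison of extraction kits within animals, PicoPure RNA came from CA1 and QIAGEN RNA from CA2, whereas these libraries are labelled CA2. By limma 0 of the 44 members tested differed between PicoPure and QIAGEN RNA, against 1.45% higher, 0.314% lower and so 1.76% in either direction of all genes, and DESeq2 and edgeR on the recovered reads also called 0. At an unadjusted p under 0.05, 6 members (13.6%) passed by limma, near the 12.5% of all genes, so their number is not read as a trait of the Rab genes. By DESeq2 3 members passed and by edgeR 5, counts that were not set beside all genes. The fitted differences leaned to lower values with PicoPure RNA, with a median log2 of -0.20 against -0.02 over all genes, and 36 of the 44 members (81.8%) were below 0 against 52.2% of all genes. The median was -0.21 within the NuGEN libraries and -0.28 within the Clontech libraries, against -0.02 and -0.05 over all genes. Below 0 were 70.5% of the members with NuGEN and 81.8% with Clontech, against 51.7% and 53.5% of all genes. With both kits 26 members were below 0, a count that was not made over all genes.

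The 6 members at an unadjusted p under 0.05 were *Rab3a*, *Rab18*, *Rab39b*, *Rab11a*, *Rab1b* and *Rab7*, all lower with PicoPure RNA; *Rab18* is named here after its values were seen. *Rab3a* had 5476 with NuGEN and 3574 with Clontech in PicoPure RNA and 6643 with NuGEN and 4649 with Clontech in QIAGEN RNA (log2 -0.33, SE 0.108, limma adjusted p = 0.136), the smallest adjusted p among the members, and the ranges overlapped. *Rab18*, a Rab of the endoplasmic reticulum and lipid droplets, had 476 and 674 in PicoPure RNA and 843 and 850.5 in QIAGEN RNA (log2 -0.58, SE 0.192, limma adjusted p = 0.143), without overlap. *Rab39b* had 150.2 and 319 in PicoPure RNA and 309.9 and 453 in QIAGEN RNA, with overlap (log2 -0.77, SE 0.278, limma adjusted p = 0.196). *Rab11a*, *Rab1b* and *Rab7* had log2 differences of -0.49, -0.37 and -0.31.

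Cell type markers moved beside this comparison. The 8 CA1 pyramidal markers summed to 1329.7 and 1192 normalized counts in PicoPure RNA (NuGEN, then Clontech) and 818 and 589 in QIAGEN RNA, with 1 of 7 tested genes, *Man1a*, called higher and *Dcn* at 0 in all unsheared libraries but Clontech of PicoPure RNA. The 7 oligodendrocyte markers summed to 4195 and 3004 in PicoPure RNA and 6745 and 4385 in QIAGEN RNA, with *Mbp* and *Mobp* called lower and no marker at 0. By limma 0 of the 8 CA2 markers tested were called, and of all genes 1.45% were called higher and 0.314% lower. The part of these cell types in the Rab values was not tested.

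**Figure D5:**
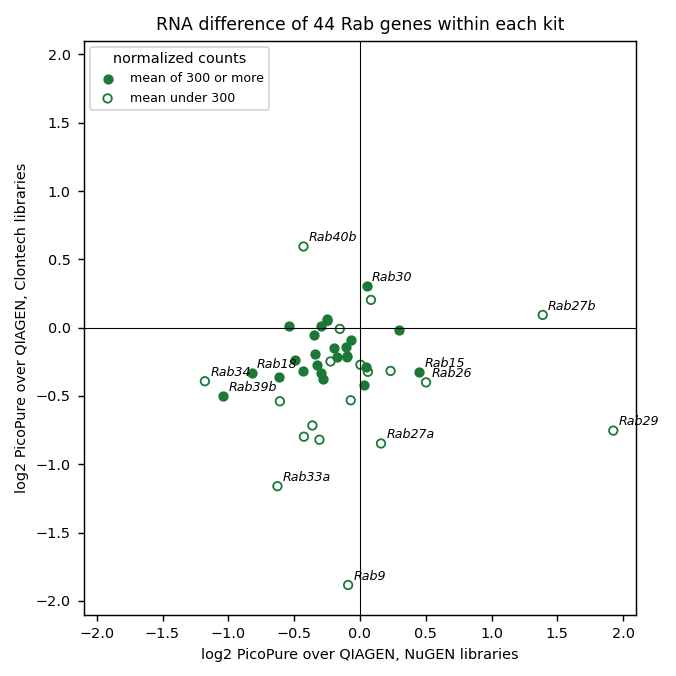
Log2 difference of 44 Rab genes between PicoPure and QIAGEN RNA, within the NuGEN libraries (x axis) and within the Clontech libraries (y axis), with filled points for members of higher mean counts. The lower left field, where both differences are below 0, holds 26 of the 44 members, a count that was not made over all genes.

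In the sheared libraries by limma 0 of 47 tested members changed with PCR cycles, against 0.044% higher, 0.0733% lower and so 0.117% of 13639 genes, and 0 passed at an unadjusted p under 0.05, against 4.55% of all genes; DESeq2 called 0 (1 at an unadjusted p) and edgeR 0. The median slope was 0.01 log2 per cycle over the members and 0.00 over all genes, and the largest was that of *Rab32* at 1.00 (SE 0.548), the gene with 1 read at 16 cycles. In the 28 members that averaged 1000 normalized counts or more, the coefficient of variation over the 3 libraries had a median of 5.46%. The steadiest of them was *Rab5a* at 0.824% with 7856, 7961 and 7842 normalized counts, and the most variable was *Rab8b*, which acts in exocytosis and at the cilium, at 15.8% with 1562, 1142 and 1315. Choroid plexus markers moved beside this, with *Ttr* at 12.8, 2796 and 93.0 normalized counts at 16, 18 and 20 cycles and called higher and *Folr1* at 0 throughout, and the CA1 markers summed to 6106, 3601 and 3503 with 1 gene called lower. Their part in the Rab slopes was not tested.

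The proteins that load, switch and read Rabs were taken as lists of genes around the pathway. Among escort, prenylation and GDI genes, 1 of 8 tested was higher and 2 were lower with NuGEN, with a median of -0.60. Of all genes, 10.8% were higher and 10.5% lower. *Rabac1*, whose product binds prenylated Rabs at the Golgi, had 576 and 649.7 normalized counts with NuGEN, against 112 and 109 with Clontech (log2 2.46, limma adjusted p = 1.88e-08), without overlap. *Gdi2*, a GDP dissociation inhibitor, had 737 and 729.7 with NuGEN, against 1343 and 1302 with Clontech (log2 -0.85), and *Chm*, a Rab escort protein, had 389 and 356 with NuGEN, against 595 and 638 with Clontech.

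Exchange factors held 3 higher and 11 lower genes of 39 tested, with a median of -0.29, against 10.8% higher and 10.5% lower of all genes. The higher ones were the TRAPP subunits *Trappc6b*, *Trappc4* and *Trappc3*, which activate Rabs of early secretion, with log2 differences of 1.41, 1.36 and 1.29. The largest fall was that of *Rab3gap1*, which with its partner subunit acts on Rab3 and, as an exchange factor, on Rab18, with 284 and 303 normalized counts with NuGEN, against 1125 and 1219 with Clontech (log2 -1.99, limma adjusted p = 4.96e-10). By limma 0 GTPase-activating protein genes of 28 tested were higher and 4 lower, *Evi5*, *Tbc1d1*, *Rabgap1l* and *Tbc1d10b*, at -1.29, -0.81, -0.66 and -0.63 (median -0.19). Of 33 effector genes tested, 0 were higher and 10 lower by limma, against the same shares of all genes, among them *Rbsn* at -1.51, *Acap2* at -1.06 and *Appl1* at -0.98 (median -0.52), of which *Rbsn* and *Appl1* bind Rab5 and *Acap2* binds Rab35. In the RNA comparison and over the cycles, 0 genes of these 4 lists passed by limma.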

How the data were processed

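The authors deposited signal values that are normalized counts. They aligned reads to mm10 with STAR 2.4.1d, counted them in genes or exon pieces by featureCounts and scaled each library by its DESeq2 size factor. Whole reads were recovered for 100% of values within 0.01 read. The methods name GENCODE M9 gene models for the libraries and vM12 for a comparison with another dataset. Which of them the sheared table used, and the use of strand in counting, are not given in the sources used here. Symbols turned into dates, 26 in the table of the sheared libraries, were left out. Columns were matched to samples by their labels.

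Because values were normalized, limma 3.58.1 (lmFit, eBayes with a trend, R 4.3.3) was run on log2(normalized count + 1) for genes that reached 10 normalized counts in 2 or more libraries, without ribosomal RNA and mitochondrial genes, with Benjamini-Hochberg adjustment over all genes and a threshold of 0.05. Kit and RNA were additive terms, and cycles a straight line. Each fit left 1 residual degree of freedom and borrowed its spread from other genes. With 1 library per combination there was no spread between replicate libraries to measure. The residual was the departure from additive kit and RNA terms, or from a straight line in cycles, and may be technical. For cycles the spread came wholly from its trend over genes. The p-values therefore do not measure the spread between mice or between repeated libraries. The steps were tested on simulated data.

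On the recovered reads, edgeR 4.0.16 called 2477 genes for kit, 202 for RNA and 15 for cycles, and DESeq2 1.42.0 called 1924, 181 and 6, against 2784, 230 and 16 by limma. Other alternatives were other filters and scalings, exon pieces, a missing second term and each library left out. Named members were those called and the most abundant of each trafficking step. Members, steps and lists were chosen with earlier results of these data known. Positions, lengths and sequences came from GENCODE vM21 on GRCm38, read with Python 3.11.15 and Biopython 1.88. *Rab17*, *Rab19*, *Rab20*, *Rab25*, *Rab32*, *Rab37*, *Rab38*, *Rab39*, *Rab42* and *Rab44* were under the filter in the unsheared libraries, and 7 members were in the sheared ones.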

Additional observations from a re-analysis of the deposited data

Results flagged for a closer look

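The RNA difference (log2, PicoPure over QIAGEN) went one way with NuGEN and the other with Clontech in 5 of the members named, each with 1 library on either side, and the difference between kits was not tested. *Rab12* was at 0.30 with NuGEN and -0.017 with Clontech. *Rab15* was at 0.45 with NuGEN and -0.32 with Clontech. *Rab21* was at 0.027 with NuGEN and -0.42 with Clontech. For *Rab5c* it was -0.29 with NuGEN and 0.010 with Clontech, and for *Rab6a* -0.25 with NuGEN and 0.066 with Clontech.

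The kit difference (log2, NuGEN over Clontech) of *Rab15* was 0.12 in PicoPure RNA and -0.65 in QIAGEN RNA, again not tested as a difference. *Rab15* had 1238 normalized counts with NuGEN and 1140.3 with Clontech in PicoPure RNA, and 908 with NuGEN and 1428 with Clontech in QIAGEN RNA.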

How the results depend on the processing

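DESeq2 on the recovered reads called 3 of 44 members higher and 5 lower for the kit, all among the 12, and edgeR called 11, all among the 12. Of 13048 genes DESeq2 called 1924 and edgeR 2477. Without the RNA term 2 of 44 members were higher and 2 lower, against 691 and 454 of 13048 genes. On summed exon pieces 3 of 43 members were higher and 3 lower, against 1478 and 652 of 12822 genes, and the median difference over members was -0.033. On the highest exon piece of each gene 14 of 42 members were called, of which 10 were among the 12, against 3383 of 11221 genes. *Rab3a* had -0.50 there and *Rab28* had 3.08 (limma adjusted p = 0.00275), against -0.13 and no call on genes. The cause was not tested. With each library left out in turn, the median was -0.34 at the lowest (without Clontech PicoPure) and -0.032 at the highest (without Clontech QIAGEN). These fits also lacked the RNA term, so that the effect of the library alone cannot be read from them, and the lone library of a kit is assumed to vary like the others. For RNA the median lay between -0.27 and -0.21 with a library left out, against -0.20 with all. No paired analysis was possible because the labels give no replicate numbers; the RNA term of the fit is the only pairing. Without the kit term 0 genes in all passed for RNA by limma. Low counts and 1 library per combination limit the differences of rare members such as *Rab13*.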
